A study of Mus musculus with 8 samples.

Results

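Granulocyte and monocyte progenitors were examined in single-cell RNA sequencing (scRNA-Seq) of femoral and tibial periosteum, the connective tissue sheath of bone. They were 284 of the 12253 kept cells, with 159 of 6029 cells under normal diet (ND) and 125 of 6224 under high-fat diet (HFD). The cells were selected on measured values, with at least 10 molecules (unique molecular identifiers, UMIs) of Mpo and at least 10 of Elane, Prtn3 and Ctsg together, among barcodes in which over 500 but not as many as 8000 genes were detected and mitochondrial UMIs stayed under 20%. High levels of these 4 genes are therefore a consequence of the selection. All mice were male C57BL/6J animals aged 16 weeks, for which no genetic alteration is given, fed ND or an HFD with 60% of calories from fat for 12 weeks from 4 weeks of age. The labels list 4 mice per diet, but each diet is represented by 1 matrix, with nothing that ties a barcode to a mouse, so that each diet was 1 library (48558889 UMIs in ND and 49940976 in HFD). No test between diets was possible, and the 95% intervals given with values cover counting error only. The tissue was digested with enzymes, and marrow cells carried over from the bone cannot be told apart from cells resident in the periosteum.

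Granulocyte and monocyte progenitors are the committed precursors from which bone marrow produces neutrophils and monocytes. While they divide, they make the proteins of the azurophil (primary) granules, that is myeloperoxidase (Mpo) and the serine proteases neutrophil elastase (Elane), proteinase 3 (Prtn3), cathepsin G (Ctsg) and neutrophil serine protease 4 (Prss57). Commitment to neutrophils proceeds through the transcription factors Gfi1 and C/EBPε (Cebpe) and later through specific granule proteins, whereas IRF8 (Irf8) directs monocyte fate, and GATA2 (Gata2) takes part in the formation of basophils and mast cells.

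The genes used for selection lie at 3 loci of the mouse genome (mm10, GENCODE models). Elane at chr10:79886247-79888215 and Prtn3 at chr10:79874476-79883174, both on the plus strand, are separated by 3072 bases, and Prss57 lies in the same cluster at chr10:79781474-79790961 on the minus strand. Mpo is at chr11:87793581-87804413 on the plus strand. Ctsg at chr14:56099881-56102574 and the basophil protease gene Mcpt8 at chr14:56082166-56085273 are neighbours on the minus strand, separated by 14607 bases. The 250 bases before each RefSeq start of the 4 genes (GRCm38.p6) are shown because these genes define the cells and stood at high levels together. The windows are chr11:87793534-87793783 (plus strand) for Mpo, chr10:79886062-79886311 (plus) for Elane, chr10:79879417-79879666 (plus) for Prtn3 and chr14:56102575-56102824 (minus) for Ctsg. GENCODE places the starts of Mpo, Elane and Prtn3 further upstream, inside or before these windows. Capitals mark matches, on either strand, to short letter strings known for 3 factors of myeloid cells. GAGGAA stands for PU.1, a transcription factor that opens the myeloid programme. The string AACGG stands for MYB, a transcription factor of dividing progenitors. The string TGTGGT stands for RUNX factors, which act in blood cell formation, and its match in Ctsg lies on the opposite strand.
Mpo: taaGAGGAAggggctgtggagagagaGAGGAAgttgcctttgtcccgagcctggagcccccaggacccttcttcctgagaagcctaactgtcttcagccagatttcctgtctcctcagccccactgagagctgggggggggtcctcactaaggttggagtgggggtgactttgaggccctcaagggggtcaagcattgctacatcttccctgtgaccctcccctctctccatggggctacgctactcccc
Elane: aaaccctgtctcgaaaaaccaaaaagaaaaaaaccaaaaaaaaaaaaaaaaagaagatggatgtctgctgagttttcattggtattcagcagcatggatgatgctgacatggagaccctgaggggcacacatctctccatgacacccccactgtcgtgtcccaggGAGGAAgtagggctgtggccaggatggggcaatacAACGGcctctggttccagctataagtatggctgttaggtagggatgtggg
Prtn3: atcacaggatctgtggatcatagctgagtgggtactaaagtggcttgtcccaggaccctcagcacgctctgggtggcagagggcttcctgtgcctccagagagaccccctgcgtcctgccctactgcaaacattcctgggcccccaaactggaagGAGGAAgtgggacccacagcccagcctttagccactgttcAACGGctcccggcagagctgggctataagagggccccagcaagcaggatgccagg
Ctsg: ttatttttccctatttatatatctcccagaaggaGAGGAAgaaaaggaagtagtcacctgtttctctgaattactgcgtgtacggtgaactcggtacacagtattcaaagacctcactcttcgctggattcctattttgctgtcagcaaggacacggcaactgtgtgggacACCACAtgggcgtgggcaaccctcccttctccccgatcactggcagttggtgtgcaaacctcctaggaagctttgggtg
The PU.1 letters occurred in all 4 windows, 85 bases before the start in Elane and 95 in Prtn3, and the MYB letters followed 50 and 55 bases before the start in the same genes. Among 32851 windows of the same length, 23.3% held the PU.1 letters, 14.5% the MYB letters and 14% the RUNX letters. The other strings searched had no match in these 4 windows. They were TTNNGNAA for C/EBP factors (in 36.8% of all windows), AGATAA for GATA factors (in 9.99%) and the heat shock element (in 0.466%). These matches are a description of the letters and not of binding.

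The progenitors had deep profiles. The median was 34290 UMIs per cell in ND (1682 to 89324) and 31134 in HFD (1245 to 83340), against 4610 and 4823.5 over all kept cells, and the progenitors held 12% and 7.79% of all UMIs of kept cells. Their share of kept cells was 2.64% in ND (95% exact Clopper-Pearson interval, 2.25 to 3.07) and 2.01% in HFD (1.67 to 2.39), and these intervals overlap. The HFD library held more shallow members, with 18 cells under 10000 UMIs against 5 in ND. The libraries shared 15 barcodes, of which 1 was a member in each.

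The 4 selecting genes spanned a wide range from cell to cell (shown in the plot of marker UMIs). Mpo had a median of 129 UMIs per cell in ND (10 to 452) and 126 in HFD (10 to 560). Elane had a median of 304 UMIs in ND (0 to 1290) and 190 in HFD (0 to 1612), and 11 cells of each library had no Elane UMI at all although their Mpo passed. Prtn3 had a median of 238 UMIs in ND and 134 in HFD, and Ctsg of 50 and 68. The other markers, Ms4a3 and Prss57, had no part in the selection. Ms4a3, a membrane protein gene of these progenitors, had at least 1 UMI in 147 of 159 ND cells and 111 of 125 HFD cells, and Prss57 in 135 and 95. Neither gene was confined to the progenitors, since Ms4a3 was also read in 83.3% and 87.8% of cycling neutrophil precursors (other dividing cells with specific granule genes) and Prss57 in 48.2% and 49.6%. As a measure of free RNA, B cells (Cd79a with Ms4a1 or Cd79b) held Ms4a3 in 1.06% of 1600 ND cells and 1.63% of 1537 HFD cells, at median depths of 3966.5 and 3877 UMIs. The same cells held Mpo in 8.31% and 6.38% and Elane in 10.4% and 12.4%, at 17.1 and 12.8 (Mpo) and 23.7 and 26.6 (Elane) UPM (the UPM of a gene, its UMIs per 1000000 UMIs of the summed cells). In the progenitors the summed levels were 3724 and 4699 UPM for Mpo and 10539 and 12950 UPM for Elane.

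**Figure D1:**
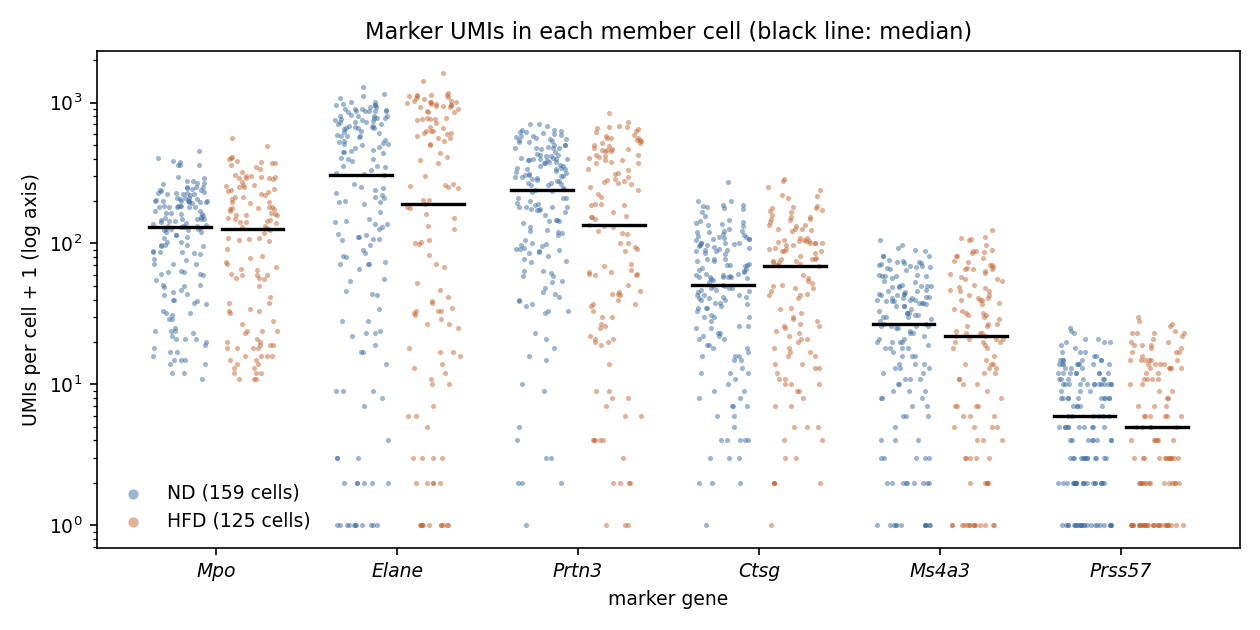
UMIs plus 1 (log axis) of 6 marker genes in each progenitor of ND (blue, 159 cells) and HFD (orange, 125 cells); each point is 1 cell and black lines are medians. Mpo starts at 10 UMIs because of the selection, whereas Elane reaches down to 0 in 11 cells of each library.

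Cells near the limits of the selection were few. With Mpo at 10 to 14 UMIs, 8 ND and 12 HFD cells lay just inside, with a median of 101.5 and 47 protease UMIs. With Mpo at 5 to 9 UMIs, 12 ND and 16 HFD cells lay just outside, with a median of 44 and 58.5. The protease limit hardly mattered, since 1 HFD cell with 14 protease UMIs lay just inside it and 1 HFD cell with 9 lay just outside.

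The label was checked against markers of other cells. Of the mature neutrophil list (summed levels 55410 UPM in ND and 46952 in HFD, S100a8 the most abundant), the surface genes were near 0, with Ly6g, a surface protein of mature neutrophils, at 28 UMIs in ND and 18 in HFD over all progenitors, and Cxcr2, the chemokine receptor of circulating neutrophils, at 27 and 13. Retnlg, which encodes a secreted protein of mature neutrophils, was not near 0, with 1697 UMIs in ND and 1410 in HFD, and 8 ND and 4 HFD cells held at least 20 UMIs of it. Macrophage markers were near 0 (C1qa, a complement component, 2 UMIs in each library), and of the 6 macrophage genes, with summed levels of 93.1 UPM in ND and 119 in HFD, the adhesion molecule gene Vcam1 was the most abundant. The 7 dendritic cell genes summed to 10.6 and 8.58 UPM, mostly Flt3, with Xcr1 at 0 in both libraries. The 6 T and NK cell genes summed to 599 and 833 UPM, nearly all from the granule protein gene Nkg7, while the T cell receptor genes Cd3e (1 UMI in each library) and Trac (9 and 3 UMIs) were near 0. The 9 B lineage genes summed to 81.2 and 64.7 UPM, with Cd79b the most abundant and Ms4a1 at 30 UMIs in ND and 0 in HFD. The 4 endothelial genes summed to 15.4 and 18.2 UPM, mostly Pecam1, with Cdh5 at 0 and 1 UMI. The 6 megakaryocyte genes summed to 20.5 and 21.8 UPM, mostly Itga2b, with Ppbp at 0 in both libraries. Single cells of both libraries carried RNA of other types or later stages. The highest Retnlg counts were 663, 303, 179 and 157 UMIs in ND cells and 480, 329, 193 and 100 in HFD cells, and the highest Ly6g counts were 13 UMIs in ND and 12 in HFD. In ND, 1 cell held 4916 of 5112 hemoglobin UMIs, 3 cells held 180, 155 and 148 UMIs of the fibroblast genes Dcn and Col1a1, and 5 cells had at least 5 UMIs of the B cell gene Cd79a. In HFD no cell held more than 11 hemoglobin, 3 Dcn and Col1a1 or 4 Cd79a UMIs.

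The rule also took in cells that the name does not cover. In 10 ND and 13 HFD cells Mcpt8, a protease of basophils, had at least 10 UMIs, and another 2 HFD cells held 2069 and 3095 UMIs of Prg2, the eosinophil granule major basic protein, with 57 and 76 UMIs of eosinophil peroxidase (Epx). In ND, 1 of the Mcpt8 cells also held 3631 Prg2 and 120 Epx UMIs. The 284 cells are therefore defined by their Mpo and protease UMIs, and the name granulocyte and monocyte progenitors applies to most but not all of them.

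To describe how the progenitors differed among themselves, each was assigned to the first of 5 subsets whose rule it met, with limits set after the data were seen. The rules were at least 10 Mcpt8 UMIs, at least 20 UMIs of the specific granule genes Ltf, Camp and Ngp together, at least 3 UMIs of the monocyte genes Irf8 and Ly86 together, at least 2 Cebpe UMIs, and the remaining cells. In ND the subsets held 10, 56, 48, 30 and 15 cells, and in HFD 13, 30, 30, 35 and 17 cells. In ND 64 cells and in HFD 35 cells met 2 or more of these rules. The 2 HFD cells rich in Prg2 fell in the Cebpe subset, and the ND cell rich in Prg2 in the Mcpt8 subset. The rules count UMIs and so depend on depth. Of the remaining cells, 10 of 17 in HFD and 1 of 15 in ND had under 10000 UMIs. In the Irf8/Ly86 subset 8 of 30 HFD cells and 2 of 48 ND cells did. Among cells with at least 10000 UMIs, the Cebpe subset made up 18.8% of 154 ND cells (13 to 25.9) and 32.7% of 107 HFD cells (24.0 to 42.5). The Irf8/Ly86 subset made up 29.9% and 20.6%, and the specific granule subset 35.7% and 28.0%.

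The Mcpt8 subset had little Elane and Prtn3. Elane stood at 349.9 UPM in ND and 127 in HFD, and Prtn3 at 409.9 and 145, against 18636 and 20671 (Elane) and 11317 and 11063 (Prtn3) in the Cebpe subset. Of the 105 ND Elane UMIs, 80 lay in 1 cell. Ctsg was at 3016 and 4812 UPM against 3157 and 3553 in the Cebpe subset. These proteases belong to the selection, which cells with few Elane and Prtn3 UMIs could pass only through Ctsg, so that the levels are a description. Genes that the subset rule did not use included the basophil and mast cell proteases Prss34 (35681 and 44190 UPM) and Cpa3 (3053 and 4339 UPM), the transcription factor Gata2 (529.9 and 1023 UPM) and the IgE receptor chain Fcer1a (969.8 and 935 UPM). All of these were at 468 UPM or below in each of the other subsets, the highest being Cpa3 in the remaining cells (318 in ND and 468 in HFD). Il3ra, the interleukin 3 receptor subunit, was at 150 and 183 UPM, and Hspa5, an endoplasmic reticulum chaperone, at 3922 and 2939 UPM. In the monocyte direction, Ly6c2 was at 3.33 and 3.53 UPM in the Mcpt8 subset against 55.8 to 1253 UPM in the others.

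The specific granule subset carried the genes of the later neutrophil stages. Beside the genes of its rule, it held Fcnb, the ficolin of neutrophil precursors, at 1678 UPM in ND and 1958 in HFD and Lcn2, an iron-scavenging granule protein, at 1703 and 2507 UPM. The alarmin gene S100a8 stood at 77193 and 80582 UPM, and Elane (15131 and 17837 UPM) and Mpo (3222 and 4101 UPM) were still present. Cd34, a surface protein of early progenitors, was at 11 and 1.02 UPM, and Npm1, a ribosome assembly chaperone, at 575 and 527 UPM. In the other subsets Npm1 was at 804 UPM or above in both libraries.

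The Irf8/Ly86 subset carried the monocyte genes. F13a1, encoding a coagulation factor subunit made by monocytes, was at 331 and 391 UPM there and at 48.4 UPM or below in every other subset. The receptor for macrophage colony-stimulating factor (Csf1r) was at 53.4 and 55.7 UPM, the chemokine receptor Ccr2 at 71.7 and 102 UPM, and the monocyte transcription factor Klf4 at 255 and 258 UPM. Elane was lower there than in the specific granule and Cebpe subsets, at 4954 and 4780 UPM. Ms4a3 was at 349 and 250.2 UPM against 1510 and 1613 in the Cebpe subset.

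The Cebpe subset combined the 4 selecting genes at high levels (Mpo 6363 UPM in ND and 6843 in HFD) with Myb, a transcription factor of progenitors, at 347 and 396 UPM. Its low Camp (47.3 and 71.1 UPM) and Irf8 (2.68 and 1.53 UPM) follow from the order of the rules, which moved cells with more of these genes to earlier subsets. The remaining cells had the highest Cd34 of the subsets, 281 and 278 UPM, together with Sox4 at 328 and 218 UPM and Kit, the stem cell factor receptor, at 70.8 and 76.7 UPM.

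**Figure D2:**
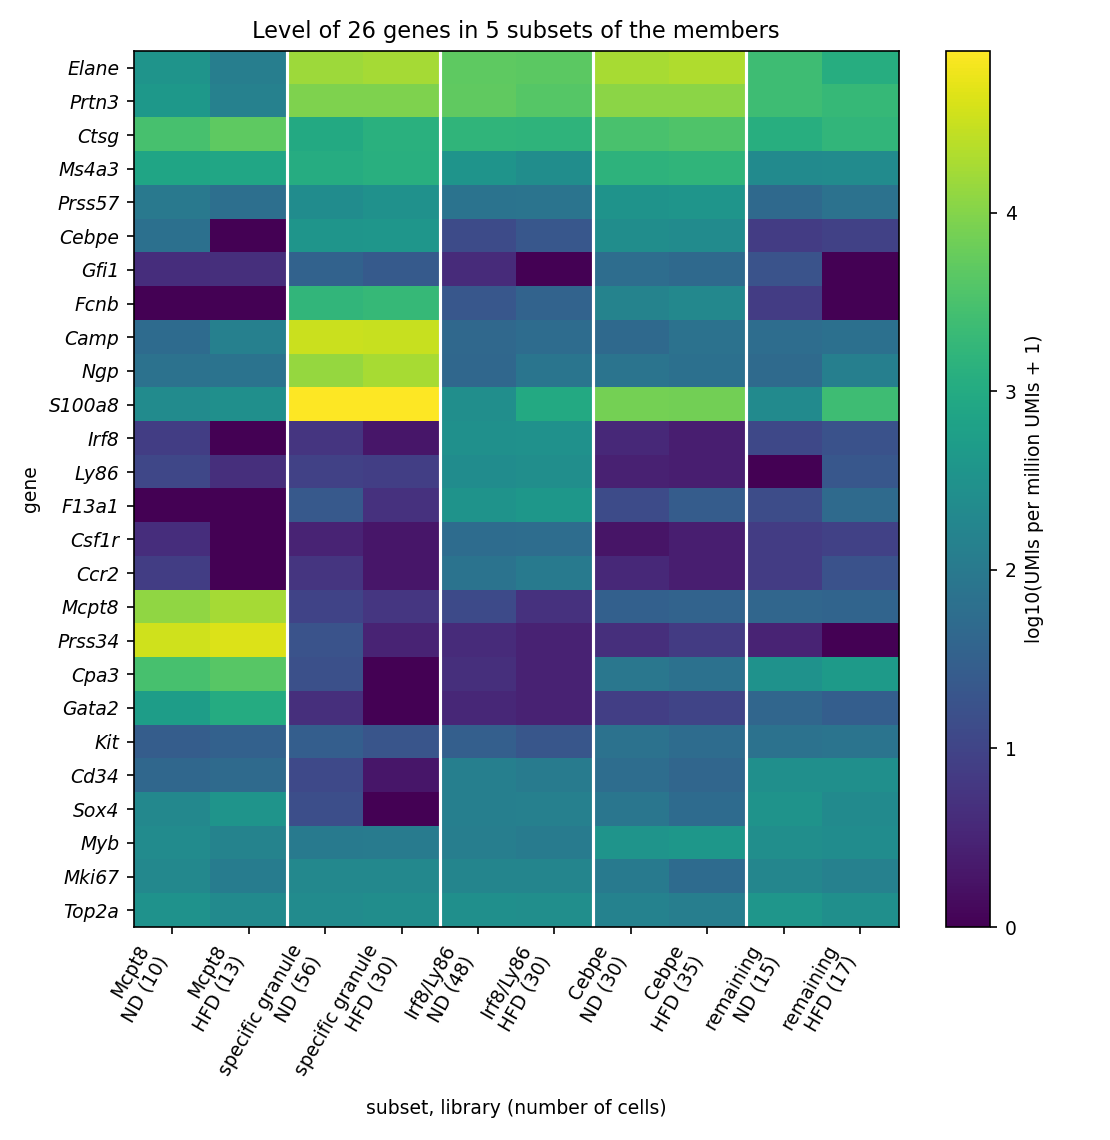
Level of 26 genes, as log10(UPM + 1), in the 5 subsets of the progenitors in ND and HFD; columns give the subset, library and number of cells. Mcpt8, Prss34, Cpa3 and Gata2 are high in the Mcpt8 subset, where Elane is at 349.9 UPM (ND) and 127 UPM (HFD), and Irf8, Ly86, F13a1 and Csf1r are high in the Irf8/Ly86 subset.

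Csf1r and Cebpe, which mark the monocyte and neutrophil directions, were read together in some of the cells. In ND 31 cells had Csf1r alone, 87 Cebpe alone, 14 both and 27 neither, and in HFD 15, 64, 12 and 34. Cells with Cebpe alone had Irf8 at 2.30 UPM in ND and 5.28 in HFD, whereas cells with Csf1r alone had it at 314 and 293 UPM. The cells with both genes had Irf8 at 182 and 264 UPM and Elane, a gene of the selection, at 8132 and 12511 UPM, between the values of the single-positive groups (Elane 2929 and 2652 UPM with Csf1r alone, 16367 and 18439 UPM with Cebpe alone). Ms4a3 also lay between them in both libraries, at 544 and 811 UPM, whereas Ly6c2 did not. It was at 1275 and 1859 UPM with both genes against 901 and 903 with Csf1r alone and 831 and 941 with Cebpe alone, and in ND, but not in HFD, Klf4 was above both groups as well (458 UPM against 226 and 13.2). After thinning each cell to 5000 UMIs, 1.90% of ND and 1.77% of HFD cells had both genes, against 8.81% and 9.6% before.

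Most progenitors carried RNA of the dividing cell. At least 1 UMI of Mki67 or Top2a, genes of dividing cells, was found in 153 of 159 ND cells (96.2%) and 103 of 125 HFD cells (82.4%). With every cell thinned to 5000 UMIs, these shares were 70.9% of 158 ND cells (63.1 to 77.8) and 55.8% of 113 HFD cells (46.1 to 65.1). The thinned share was 78.6% and 76.7% in the specific granule subset, 77.1% and 64.3% in the Irf8/Ly86 subset and 60% and 42.9% in the Cebpe subset. It was 70% and 46.2% in the Mcpt8 subset and 64.3% and 57.1% in the remaining cells. Among all other kept cells it was 18.2% and 16.6%, read at 5000 UMIs in the 2618 and 2902 cells that were deep enough.

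The progenitors were next compared with the kept cells most like them, to find which genes set them apart. The comparison ranges were early Kit-positive cells (Kit at 2 and Cd34 at 1 UMI or more, 11 ND and 21 HFD cells), cycling neutrophil precursors (at least 5 Fcnb, 20 Ltf, Camp and Ngp, and 2 Mki67 and Top2a UMIs, 114 and 123 cells) and monocytes (at least 3 Ly6c2, 1 Ccr2 and 1 Csf1r UMI with low specific granule genes, 234 and 239 cells). These are ranges of UMI counts in cells that are not progenitors by the rule, and a gene was counted when it differed by over 2-fold the same way in both libraries. Cells are not replicates and no test was made. Against the early Kit-positive cells, 333 of 4489 genes (7.42%) were higher and 245 (5.46%) lower in the progenitors. Against the cycling neutrophil precursors, 1669 of 5645 genes (29.6%) were higher and 282 (5.0%) lower. Against the monocytes, 566 of 6252 genes (9.05%) were higher and 846 (13.5%) lower, and against all other kept cells 1238 of 11558 (10.7%) were higher and 2852 (24.7%) lower.

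Relative to the early Kit-positive cells, the progenitors had less of the stem cell programme and more of the secretory one. Of 13 measured early stem and progenitor genes, 11 were lower and 1 was higher, with list medians of -2.12 (ND) and -2.35 (HFD) on the log2 scale against 0.04 and 0.13 over all genes. Genes of the Kit-positive rule are high in those cells by selection, and the count was not repeated without them. Cd34, part of the rule of the Kit-positive range, was at 83.1 UPM in ND progenitors against 214 in the Kit-positive cells and at 63.9 against 319 in HFD. Flt3, a cytokine receptor of early progenitors, was at 9.02 against 42.9 UPM in ND and 7.28 against 125 in HFD. The transcription factor gene Myb, in contrast, was similar (178 against 195 UPM in ND, 219 against 154 in HFD). Genes of protein folding and secretion in the endoplasmic reticulum were higher in 13 of 25 and lower in none. Of the S phase genes 13 of 39 were higher, but of the G2M phase genes only 3 of 39.

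Relative to the cycling neutrophil precursors, which also divide, the progenitors had more RNA of ribosome biogenesis and protein secretion genes and less of late granule genes. All 25 measured ribosome biogenesis genes were higher, with list medians of 3.17 (ND) and 3.24 (HFD) against 0.57 and 0.60 over all genes. Npm1 stood at 1393 UPM against 144 in ND and at 1303 against 128 in HFD, and Srm, spermidine synthase, at 167 against 2.93 and 165 against 1.13. The endoplasmic reticulum genes were higher in 22 of 25, with Hspa5 at 1397 against 333 UPM in ND and 883 against 221 in HFD. The specific granule genes, part of the precursors' own rule, were lower in 14 of 17, and 4 of 7 NADPH oxidase genes, which encode the complex for the oxidative burst, were lower with none higher. Only 1 of 46 G2M phase genes was higher and 7 were lower, with Mki67, part of the precursors' rule, at 165 against 390.0 UPM in ND and 129 against 430.1 in HFD.

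Relative to the monocytes, 15 of 19 monocyte lineage genes were lower in the progenitors and 1 was higher. Genes of the monocyte rule (Ly6c2, Ccr2 and Csf1r) are high in the monocytes by selection, and the count was not repeated without them. Ccr2, a gene of the monocyte range's own rule, was at 27.4 against 496 UPM in ND and 28.8 against 511 in HFD, and F13a1, which no rule used, at 124 against 707 and 117 against 745. All 6 MHC class II genes, which present antigen, were lower, as were 12 of 14 interferon-stimulated genes and 10 of 13 genes of adhesion and niche retention. The S phase genes were higher in 22 of 42 and the ribosome biogenesis genes in 19 of 26. Of 46 G2M phase genes, only 2 were higher and none lower.

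Over all other kept cells, the genes furthest above in both libraries, among those with at least 400 UMIs in the progenitors and beyond the 4 used for selection, were Prg2, Ms4a3, Prss57, Dmkn, Cst7, Cpa3, Fcer1a, Mcpt8, Ms4a2, Prss34, Cdk6, Gatm, Syce2, Plac8 and Tma16. Of these 15, Prg2 came from the 3 cells described above, and the basophil and mast cell genes Cpa3, Fcer1a, Mcpt8, Ms4a2 and Prss34 came mainly from the Mcpt8 subset. Ms4a3 stood at 840.4 UPM in ND and 1006 in HFD against 21.8 and 22.1 (204 and 210.2 in the cycling neutrophil precursors), and Prss57 at 179 and 228 against 5.01 and 5.25. Genes present across the subsets were Cdk6, a G1 phase kinase (319.6 and 362 UPM against 41.6 and 38.1, but 377 and 285 in the early Kit-positive cells), and Plac8, a small cysteine-rich protein gene of myeloid cells (2609 and 2689 against 372 and 406). Cst7, encoding the protease inhibitor cystatin F, stood at 175 and 209 UPM against 10.3 and 8.23, and Gatm, encoding an enzyme of creatine synthesis, at 136 and 155 against 16.8 and 20.6. S phase genes were higher in 38 of 43 and G2M phase genes in 16 of 54, and mature neutrophil genes were lower in 15 of 19.

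The HFD library was then compared with the ND library within the progenitors. Of 6832 genes with at least 100 UMIs over both libraries, 101 (1.48%) were higher and 160 (2.34%) lower by over 1.5-fold in HFD than in ND, with a median log2 ratio of 0.03. When each cell was given equal weight in place of each UMI, 280 genes were higher and 268 lower, so that the larger number of lower genes depended on how cells were summed. Among the 20 lists other than cell type markers, the largest departures came from few lists (shown in the plot of list medians), and most lists had a median within 0.2 of 0.

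**Figure D3:**
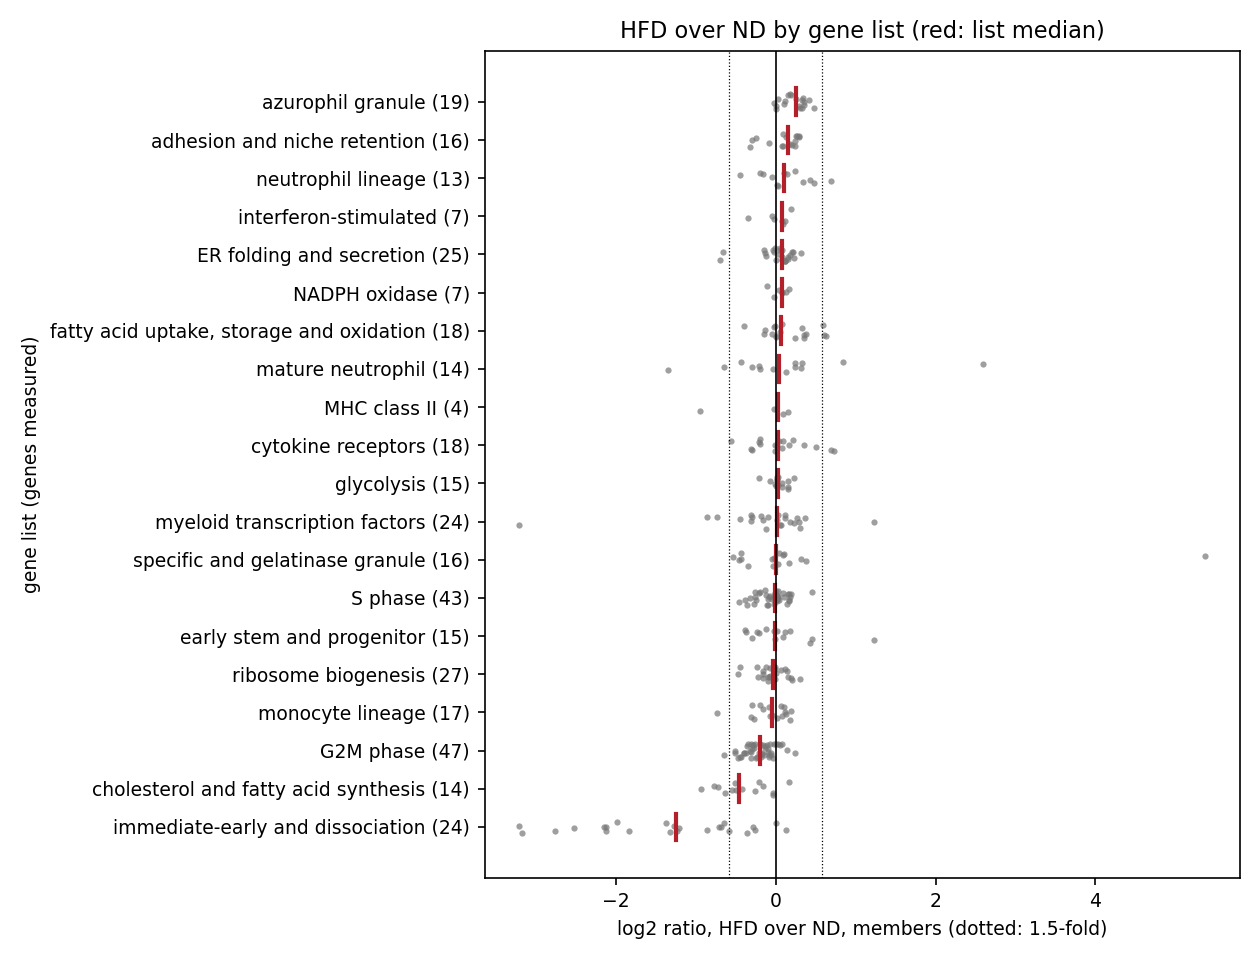
Log2 ratio of HFD over ND in the progenitors for the measured genes of 20 lists; each grey point is a gene, red bars are list medians and dotted lines mark 1.5-fold. The immediate-early and dissociation list has a median of -1.25 and the azurophil granule list of 0.26, and the isolated point at 5.38 is Olfm4.

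Among these 20 lists the largest difference lay in immediate-early and heat shock genes, a list of rapid response genes that includes those induced by tissue dissociation. Of 24 measured, 19 were lower in HFD and none higher, and the list median was -1.25 on the log2 scale (-1.44 to -1.06, the medians of the lower and upper counting bounds of its genes). Summed over the 25 genes of the list, the level was 12302 UPM in ND and 5613 in HFD. The lower levels covered AP-1 and other early transcription factors, where Jun was at 1116 UPM in ND and 282 in HFD, Fos at 307 and 86.3, Egr1 at 73.4 and 7.80 and Klf2 at 615 and 107. Heat shock chaperones stood apart in the same way, with Hspa1a at 967 and 108 UPM, its near-identical neighbour Hspa1b at 724 and 107, Dnajb1 at 435 and 100.1, and the constitutive chaperone Hspa8 at 2647 and 1459. As the coding sequences of these neighbours are nearly the same, the split of reads between them is uncertain. Not every gene of the list differed, and Nr4a1, an orphan nuclear receptor (90.3 and 98.8 UPM, log2 ratio 0.13), and Nfkbia, the inhibitor of NF-kB (448 and 451 UPM, 0.01), stood at similar levels.

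The same list was lower in HFD in every comparison range examined, to different degrees. The list median was -0.52 over all other kept cells, -0.66 in B cells, -0.40 in T cells, -0.53 in early Kit-positive cells, -1.01 in monocytes and -1.13 in cycling neutrophil precursors. Single genes followed different patterns, since Egr1 had a log2 ratio of -3.21 in the progenitors (-3.82 to -2.70) and -0.14 in all other kept cells, and Fos -1.83 and -0.27. Low ratios were not particular to the progenitors. Egr1 was at -2.36 in monocytes, -2.16 in cycling neutrophil precursors and -0.22 in early Kit-positive cells, and Fos at -1.50, -0.84 and -0.33. The difference between progenitors and other cells was not tested. Since 1 library was made per diet, handling of the libraries and diet cannot be told apart.

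**Figure D4:**
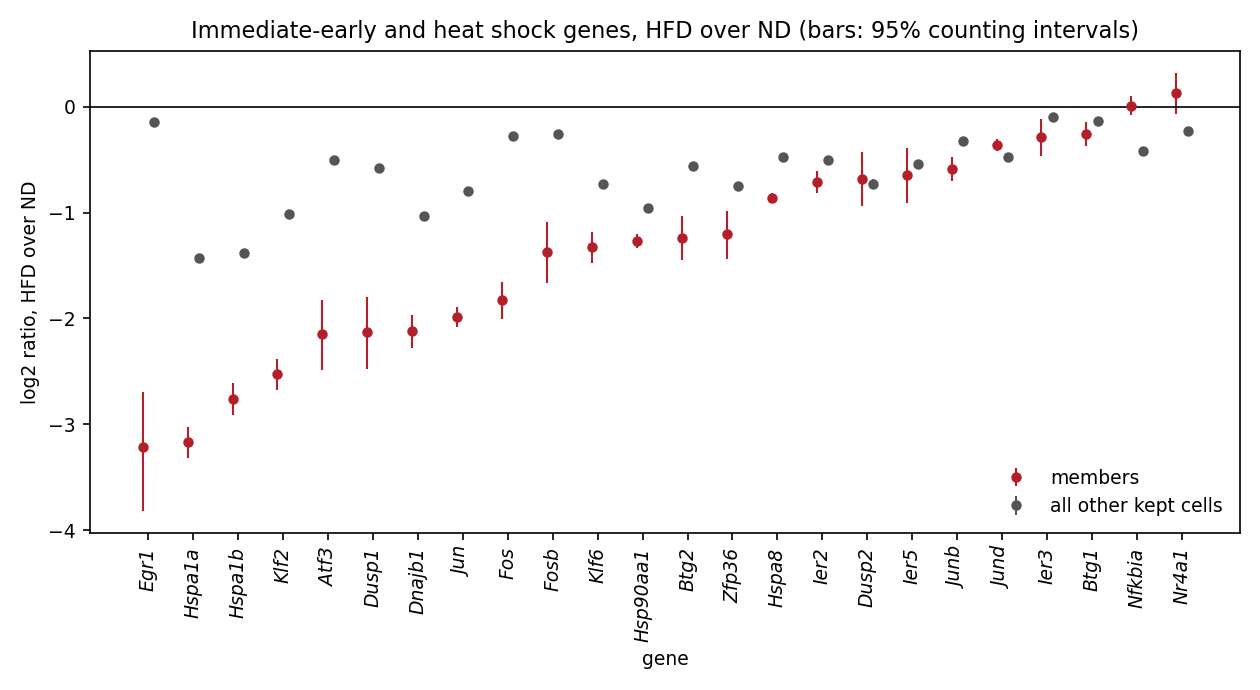
Log2 ratio of HFD over ND for the 24 measured immediate-early and dissociation genes in the progenitors (red, bars are 95% counting intervals) and in all other kept cells (grey). The progenitors lie below the other cells for most genes, from -3.21 for Egr1 in the progenitors up to 0.13 for Nr4a1.

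The ND cells differed widely among themselves. The UPM of the list per cell had a lowest value of 1898, a median of 8922 and a highest value of 54611 in ND, against 1929, 4745 and 25050 in HFD. The lowest cells of the libraries lay close together, but the quartiles did not, at 5038 and 15837 UPM in ND and 3311 and 6667 in HFD, and 77.4% of ND cells lay above the HFD median. At least 10000 UPM, a limit set after the data were seen, were reached by 72 of 159 ND cells (45.3%, 37.4 to 53.4) and 11 of 125 HFD cells (8.8%, 4.48 to 15.2). The 72 ND cells had a median of 35.5 Hspa1a, 54.5 Jun and 27.5 Klf2 UMIs, while the other 87 had 0, 5 and 1 and the 114 HFD cells below the limit 0, 3 and 1. These genes belong to the list that set the limit. The cells below it still differed between libraries, with Hspa1a read in 35 of 87 ND and 17 of 114 HFD cells and a median of 48 and 29.5 Hspa8 UMIs. Depth and mitochondrial share did not separate the ND groups, with medians of 34573 and 34272 UMIs and of 1.15% mitochondrial UMIs in both. The cycling neutrophil precursors showed a similar split, with 42 of 114 ND cells (36.8%) and 3 of 123 HFD cells (2.44%) past the limit. Monocytes were mostly past it in both libraries (85.9% and 61.9%), as were B cells (87.6% and 74.8%). Since barcodes are not tied to mice, differences between mice and differences between cells of 1 mouse cannot be told apart.

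The subsets all showed the lower level in HFD. The per-cell median of the list in ND and HFD was 12983 and 9745 UPM in the Mcpt8 subset, 6237 and 3415 in the specific granule subset, 8928 and 6309 in the Irf8/Ly86 subset, 9504 and 3728 in the Cebpe subset and 8557 and 5472 in the remaining cells. The ranges of the libraries overlapped in each subset. In ND the specific granule cells spread from 1898 to 29537 UPM, with an interquartile range of 3357 to 14088.

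**Figure D5:**
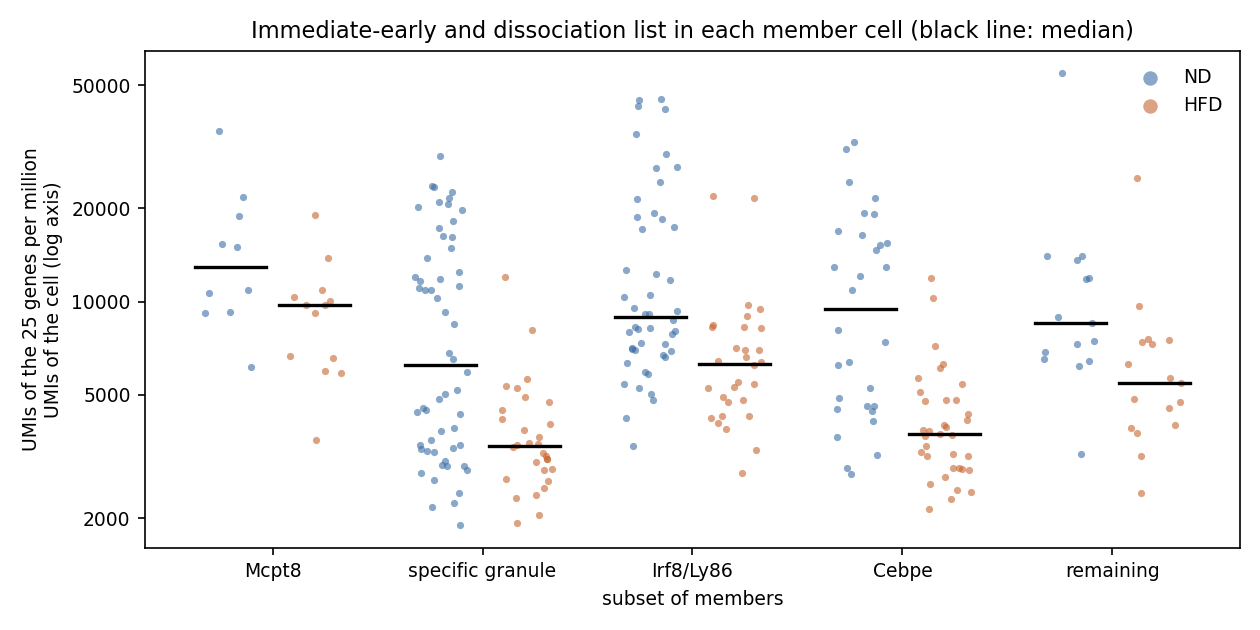
UMIs of the 25 immediate-early and dissociation genes per 1000000 UMIs of the cell (UPM, log axis) in each progenitor, by subset, in ND (blue) and HFD (orange); each point is 1 cell and black lines are medians. ND cells spread up to 54611 UPM whereas 114 of 125 HFD cells lie below 10000 UPM.

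Azurophil granule genes, which characterise these cells, were slightly higher in HFD in summed UMIs, without any passing 1.5-fold. Per cell the list differed less, with a median of 24441 UPM in ND and 25812 in HFD, and 54.4% of HFD cells lay above the ND median. The list median was 0.26 over 19 genes (0.12 to 0.36), against 0.03 over all genes and 0.04 for the same list in other kept cells. Ctsg was at 1729 UPM in ND and 2417 in HFD (log2 ratio 0.48), Elane at 10539 and 12950 (0.30), Prss57 at 179 and 228 (0.35) and the granule proteoglycan gene Srgn at 3364 and 4226 (0.33). Prtn3 did not follow, at 7148 and 7301 UPM (0.03). The list median was 0.02 in monocytes, 0.06 in cycling neutrophil precursors and -0.07 in early Kit-positive cells. Single genes were nevertheless higher in HFD outside the progenitors. In monocytes the log2 ratio was 1.15 for Ctsg and 0.45 for Prtn3, but -0.09 for Elane. In cycling neutrophil precursors Elane was at 0.37 and Prtn3 at 0.35. Summed by subset, the list median was 0.15 (Mcpt8), 0.21 (specific granule), 0.07 (Irf8/Ly86), 0.01 (Cebpe) and 0.46 (remaining cells). The Cebpe subset, where the list was highest, made up 18.9% of the progenitors in ND and 28% in HFD, and the part of the subset makeup in the list's difference was not tested. Mpo, Elane, Prtn3 and Ctsg are the genes of the selection, so that their levels, and the list values to which they contribute, are given as a description. No list median without them was computed.

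Later granule genes had no common direction. Of 16 specific and gelatinase granule genes, 15 stayed within 1.5-fold, and Olfm4, encoding the neutrophil granule protein olfactomedin 4, was the exception at 1.39 UPM in ND and 61.1 in HFD. Only 8 UMIs stood behind the ND value, and 5 HFD cells held 228 of the 235 HFD UMIs. Mature neutrophil genes were higher in 2 and lower in 2 of 14. Both lists depended on the selection, since with 20 in place of 10 UMIs for the selecting genes their medians were -0.75 and -0.59 rather than 0.01 and 0.04. Monocyte lineage genes were lower in 1 of 17 (Klf4, 121 and 72.8 UPM) and higher in none. Klf4 did not differ in this way in the Irf8/Ly86 subset, which held most of its UMIs (255 and 258 UPM), and 118 of its 697 ND UMIs lay in 1 cell of the specific granule subset.

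Genes of cholesterol and fatty acid synthesis were lower in 4 of 14 and higher in none, with a list median of -0.46 (-0.91 to -0.03). Among them Idi1, an enzyme of the isoprenoid steps, was at 26.7 UPM in ND and 15.6 in HFD, Stard4, a sterol carrier, at 13.9 and 8.32, and Scd2, a fatty acid desaturase, at 32.3 and 20.8. The list median was below 0 in most comparison ranges as well, at -0.74 in early Kit-positive cells (9 genes), -0.33 in monocytes, -0.26 in cycling neutrophil precursors and -0.13 over all other kept cells. It was at -0.29 in T cells (13 genes) but near 0 in B cells (-0.02, with 7 of 14 genes below 0). Genes of fatty acid uptake, storage and oxidation were higher in 3 of 18 and lower in none, against 1.48% higher and 2.34% lower over all genes. The list median was 0.07 in the progenitors and 0.19 in other kept cells. The triglyceride synthases Dgat1 (42.1 and 63.7 UPM) and Dgat2 (20.5 and 31.7 UPM) and Hilpda, a lipid droplet protein (27.6 and 41.8 UPM), were the 3 higher genes. Counts behind these genes were low, from 32 UMIs (Stard4, HFD) to 245 (Dgat1, HFD). The glycolysis list had a median of 0.03, with none of 15 genes past 1.5-fold.

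Among 18 cytokine receptor genes, 2 were higher in HFD and none lower. Ifngr1, the ligand-binding chain of the interferon gamma receptor, was at 164 UPM in ND and 272 in HFD (log2 ratio 0.73, 0.60 to 0.86) and at -0.04 in other kept cells, and Igf1r, the insulin-like growth factor 1 receptor, was at 36.2 and 58.7 UPM. The partner chain Ifngr2 was at 23.9 and 19.2 UPM, and none of 7 interferon-stimulated genes passed 1.5-fold. Receptors for the colony-stimulating factors that sustain these cells remained within 1.5-fold, with Csf2ra at 123 and 131 UPM, Csf3r at 41.3 and 35.9 and Csf1r at 19.8 and 16.1. None of 16 adhesion and niche retention genes and none of 7 NADPH oxidase genes passed 1.5-fold.

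Few single growth and division genes passed 1.5-fold. None of 43 S phase and none of 27 ribosome biogenesis genes passed 1.5-fold, and 1 of 47 G2M phase genes was lower, with a list median of -0.20 (-0.47 to 0.04), and Mki67 at 165 UPM in ND and 129 in HFD. Of the 47 G2M phase genes, 41 had a ratio below 0, where all 6832 genes had a median log2 ratio of 0.03. By subset the genes below 0 were 27 of 47 (specific granule), 34 of 47 (Irf8/Ly86), 29 of 47 (Cebpe), 22 of 39 (remaining cells) and 30 of 34 (Mcpt8). Per cell, the S phase genes had a median of 3191 UPM in ND and 2637 in HFD and the G2M phase genes of 6629 and 5819, beside the lower thinned share of HFD cells with Mki67 or Top2a given above. By subset the log2 ratio of Mki67 was 0.00 (specific granule), -0.02 (Irf8/Ly86), -0.91 (Cebpe), -0.28 (remaining cells) and -0.79 (Mcpt8). In the same order the S phase list median was 0.19, 0.03, -0.10, -0.05 and -0.54, and over all progenitors it was -0.004. The part of the subset makeup in these differences was not tested. Of 25 endoplasmic reticulum genes, Hspa5 (1397 and 883 UPM) and the stress transcription factor gene Ddit3 (65.9 and 40.5 UPM) were lower and none was higher. Neutrophil lineage genes were higher in 1 of 13 (Ets1, 50.5 and 81.3 UPM). Early stem genes were higher in 1 of 15, a gene that is also counted in another list. The 4 measured MHC class II genes included 1 lower (Cd74, 39.7 and 20.5 UPM). Of 24 myeloid transcription factor genes, Gata2 was higher and Egr1, Id2 and Klf4 were lower. Of the Gata2 UMIs, 159 of 198 in ND and 290 of 311 in HFD lay in the Mcpt8 subset, and without the Mcpt8 and Prg2 cells its log2 ratio was -0.24. Ets1 was at 0.44, Dgat1 at 0.53 and Gas2l3, the lower G2M phase gene, at -0.55 without these cells, within 1.5-fold.

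Other cell types contributed to the ends of the ratio scale. The basophil and mast cell genes were higher in HFD in 5 of 6, with a list median of 0.85 and summed levels of 2859 UPM in ND and 5181 in HFD, Prss34 being the most abundant. Within the rest of the progenitors, after the cells with 10 Mcpt8 or 100 Prg2 UMIs were left out, the median was -0.24. The eosinophil genes Prg2, Epx and Prg3 rested on the 3 Prg2 cells, with summed levels of 677 and 1444 UPM over 6 genes. Their list median was 1.02, and it turned to -0.27 (Prg2 from 1.09 to -0.23) when the 1 progenitor of each library that Scrublet called a doublet was left out. All 5 measured erythroid genes were lower in HFD, at 927 and 76.9 UPM, of which 1 ND cell held most. Without the top cell of each library the log2 ratios turned to 0.82 (Hba-a1), 0.65 (Hbb-bs) and 0.63 (Hba-a2), while Hbb-bt was at -0.30. The lower Dcn, the most abundant of 6 mesenchymal genes (summed 116 and 18.5 UPM), came from 3 ND cells with 177, 154 and 133 UMIs. Hspb1, a small heat shock protein gene, had the lowest ratio of all genes with at least 400 UMIs (183 and 2.34 UPM), and 2 ND cells held 457 and 307 of its 1053 ND UMIs. Its log2 ratio was -6.21, and -5.94 without the top cell of each library, with a UMI in 31 ND and 7 HFD cells. Il1b, an inflammatory cytokine gene, was at 72.1 and 129 UPM, with 172 and 131 of 497 HFD UMIs in 2 cells. Its log2 ratio was 0.84, and -1.55 without the Mcpt8 and Prg2 cells. Others of the 10 highest genes were Thbs1, encoding thrombospondin 1 (44.2 and 91.5 UPM), the interferon-inducible Ifi27 (34.5 and 62.1 UPM) and the unnamed gene model Gm47283 (127 and 267 UPM), whose log2 ratios were 1.34, 0.86 and 1.03 without the top cell of each library. In all other kept cells their log2 ratios were 0.28, 0.35 and 0.95, so that Gm47283 stood apart between the libraries there as well. Without the ND cells that carried RNA of hemoglobin, B cell or fibroblast genes, 132 genes were higher and 136 lower in HFD, and the immediate-early list had 17 lower genes and a median of -1.20.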

How the data were processed

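Periosteal cells of 2 pooled 10X libraries (3′ chemistry), 1 per diet, were analysed. The authors deposited whole-number UMI counts per gene and barcode without normalization, made with Cell Ranger 6.0.1 against mm10, per the submitters' processing notes. Groups were taken from the labels. The libraries held 6314 (ND) and 6636 (HFD) barcodes. The progenitors, their subsets and all gene lists were chosen with earlier results of these data known, and the subset and list limits after the data were seen.

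UMIs were summed over cells and given per 1000000 UMIs of the same cells (UPM). Log2 ratios were computed after adding 0.5 to each count. Between diets a gene needed 100 UMIs over both libraries and counted as higher or lower past 1.5-fold. Against comparison cells it needed 100 UMIs in each library and 2-fold the same way in both. Intervals (95%) were exact Poisson, Clopper-Pearson or conditional binomial, and 0 UMIs were read as at most 3. A UMI is 1 captured molecule, so depth sets the precision of each value. Genes were named by rule: the 6 markers, list members with most UMIs or extreme ratios, the 10 highest and 10 lowest ratios between diets and the 15 genes furthest above other cells, both among genes with at least 400 UMIs in the progenitors, and defining markers of other types. Ly6c2, Il3ra, Ramp1, Calcrl and genes shown only by subset were chosen after their values were seen. Doublets were kept, and Scrublet (scanpy 1.11.5, expected rate 8%) called 1.99% of ND and 0.916% of HFD cells, 1 progenitor in each. No replicate exists within a diet, so no test was made. Promoter windows and motif letters were read from RefSeq (GRCm38.p6, 27025 symbols). The ratio and interval steps were tested on simulated data. Scripts ran in Python 3.11.15 with matplotlib 3.10.9, pandas 2.3.3, scipy 1.17.1 and numpy 2.4.6. Values of 1 gene of the cholesterol and fatty acid synthesis list are not reported here.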

Additional observations from a re-analysis of the deposited data

Results flagged for a closer look

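Barcodes that met the UMI limits of the selection but failed the filter on mitochondrial UMIs were not among the progenitors, and there were 2 in ND and 2 in HFD. Their mitochondrial shares were 32.1% and 29.8% in ND and 26.7% and 24.6% in HFD, at depths of 3310 and 4262 and of 3218 and 6276 UMIs. All 4 are far shallower than the median progenitor, and they held 26, 16, 46 and 65 Mpo UMIs.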

How the results depend on the processing

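Of the values recomputed under other settings, 348 main values moved by less than their interval or by less than 1.5 times, 40 moved further and 2 reversed. For single genes these numbers were 433, 110 and 6. The immediate-early list kept its direction over 13 alternatives, with medians of -1.41 to -1.02 and 12 to 20 lower genes. Depth limits all shares of cells with a UMI and all genes under 100 UMIs. No replicate could be left out, and no paired analysis was possible because each diet was 1 library. The causes of the changes below were not tested.

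Selection with 20 UMIs gave an HFD share of 1.59% and medians of -0.75 (specific granule), -0.59 (mature neutrophil) and -0.029 (NADPH oxidase), and with 5 UMIs of 0.18 and 0.20 for the first of these lists and the mature neutrophil list. Genes higher and lower between diets numbered 280 and 268 with equal weight per cell, 33 and 62 (of 1736) after thinning to 5000 UMIs, 208 and 311 (of 8511) with a minimum of 50 UMIs, and 18 and 63 (of 2887) with 400. Equal weight gave medians of 0.32 (interferon-stimulated) and 1.39 (eosinophil). Thinning gave -1.02 (immediate-early), -0.082 (NADPH oxidase), 0.28 (interferon-stimulated), 1.11 (basophil and mast) and 1.49 (eosinophil). Without Scrublet doublets the eosinophil median was -0.27 and Prg2 -0.23. Without the 5% of progenitors with most UMIs, the mature neutrophil median was 0.16 and the monocyte lineage median -0.40. The following settings were chosen after seeing the data. Without cells with RNA of other types, the basophil and mast median was 1.25 and Hbb-bs 0.68. Without the Mcpt8 and Prg2 cells, the basophil and mast median was -0.24, Hbb-bs 0.69, Mcpt8 -0.36, Cpa3 -0.13 and Il1b -1.55. Against early Kit-positive cells, 378 genes were lower after thinning to 2000 UMIs. Thinning to 5000 UMIs gave 8.86% (Csf1r only), 42.4% (Cebpe only), 1.90% (both), 46.8% (neither) and 70.9% (Mki67 or Top2a) in ND, and 4.42% (Csf1r only), 1.77% (both), 50.4% (neither) and 55.8% (Mki67 or Top2a) in HFD. Counting 2 UMIs as detected gave 1.89% (both), 26.4% (neither) and 91.2% (Mki67 or Top2a) in ND, and 3.2% (both) and 71.2% (Mki67 or Top2a) in HFD. Among HFD cells with at least 10000 UMIs, 19.6% had neither gene.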

Other observations

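Ramp1, which encodes the accessory protein that forms the receptor for the nerve peptide CGRP with the product of Calcrl, was read in nearly every progenitor, and it was chosen after its values were seen. It had at least 1 UMI in 153 of 159 ND and 121 of 125 HFD progenitors, at 441 UPM (424 to 459) and 520.0 UPM (497.5 to 543), against 79.8 and 88.3 UPM in all other kept cells. By subset in ND it was at 257 UPM (Mcpt8), 262 (specific granule), 582 (Irf8/Ly86), 565 (Cebpe) and 401 (remaining cells), and in HFD at 314, 364, 587, 651 and 403. Early Kit-positive cells stood at 391 and 418 UPM, monocytes at 209 and 250.4 and cycling neutrophil precursors at 48.4 and 55.5. B cells held a Ramp1 UMI in 9.56% and 10.3% of cells at median depths of 3966.5 and 3877 UMIs. The partner gene Calcrl was low in the progenitors, at 17.5 and 16.4 UPM, with a UMI in 61 ND and 37 HFD cells, and stood at 25 and 29.1 UPM in all other kept cells.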
